A study of Hordeum vulgare with 28 samples.

Results

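The two-spotted spider mite, Tetranychus urticae, is a generalist that pierces single leaf cells with its stylets and empties them. Barley leaves infested with this mite for 2 h (T2, 4 libraries) were compared with non-infested leaves (C, 4 libraries). Together these make 8 of the 28 libraries of the series. All 16948 genes that passed a filter on low counts, of 25592 in the table, were compared. All libraries came from the fifth leaf of 30-day-old plants of Hordeum vulgare cultivar Morex, with the enclosed section of a single leaf as a replicate. T2 leaves carried 400 adult female T. urticae per enclosed section. The mites belonged to a single laboratory strain that was reared on bean and then kept on barley before use, so the mite is represented by 1 population and the plant by 1 cultivar. T2 was also set against 3 other groups of 4 libraries. O2 leaves carried 400 Oligonychus pratensis, a mite specialized on grasses, for 2 h. W2 leaves were wounded by pressing them with sandpaper and collected 2 h later, with no mites. T24 leaves carried 200 T. urticae for 24 h. A single set of C leaves served both time points, and no enclosure in C held mites.

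Plants respond to chewing and cell-piercing herbivores largely through jasmonates, hormones made from plastid fatty acids. Allene oxide synthase (AOS) commits a hydroperoxide to the pathway, and the active hormone triggers the breakdown of JAZ repressors, which hold transcription factors inactive together with the adaptor NINJA and a corepressor. JAZ genes and several genes of the synthesis pathway are themselves induced by jasmonate. Downstream products include chitinases, glucanases, proteinase inhibitors and volatile terpenes. Calcium-binding proteins and mitogen-activated protein kinases act early in the same responses in Arabidopsis.

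Roles are given only for genes that the study paired one-to-one with an Arabidopsis gene. The part of that pairing used here covered 1998 barley genes, of which 1828 were tested, and the names and roles given below are those of the Arabidopsis partner. The position of the genes and their sequences were not used here. Levels are CPM (counts divided by the library total and scaled to 1000000), which are not corrected for gene length, so the tests compared libraries and not genes.

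Leaf identity was clear in both groups. The gene paired with LHCB2, a light-harvesting protein of photosystem II, had 7137 to 8936 CPM in T2 and 7143 to 9785 CPM in C. The summed level of 18 nuclear photosynthesis genes was 19087 to 24423 CPM in T2 and 19973 to 25489 CPM in C, and none of the 18 was at 0. For 5 epidermis and cuticle genes the sum was 6.03 to 8.23 CPM in T2 and 6.67 to 9.24 CPM in C, and for 5 guard cell and vein genes 146.2 to 189.6 CPM in T2 and 132.2 to 172.8 CPM in C. HDG11 and SHN1, both regulators of the epidermis, and SWEET11, a sugar exporter of the veins, had no counts in T2, and SHN1 had none in C. Total counts were 13005832, 11708010, 17422941 and 12487653 in T2 and lay between 22826959 and 35219791 in C. Every T2 library was thus shallower than every C library (2-sided exact permutation test p = 0.0286, the smallest that 70 assignments allow; adjusted p = 0.0857 over 3 library measures). The share of counts in plastid-encoded genes was 0.540% to 0.775% in T2 and 0.583% to 0.855% in C (exact permutation p = 0.457), and the share in the 10 most abundant genes was 10.96% to 13.3% in T2 and 10.4% to 13.5% in C (exact permutation p = 0.83).

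At 2 h the response to T. urticae was almost entirely a rise. Of the 16948 genes tested, 418 were higher in T2 than in C and 4 were lower (edgeR quasi-likelihood test, Benjamini-Hochberg adjusted p below 0.01 and an absolute log2 fold change above 1), which is 2.49% of the genes tested, with 2.47% higher and 0.0236% lower. The median log2 fold change of the 418 genes was 2.51 with an interquartile range of 1.67 to 4.32, while the median of all tested genes was -0.02. The rise exceeded a log2 fold change of 3 in 171 genes and of 5 in 76 genes. In 222 of the 418 genes the C mean was below 1 CPM, and 29 had no count in any C library. With these 29 set at the bound that 3 counts over the C group allow, the median remained 2.51. A median moves only if a bound falls on its other side, so this says little about the size of those 29 rises. In 25 genes the T2 mean exceeded 100 CPM.

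The T2 and C libraries did not overlap in 415 of the 418 raised genes, against a background of 6.63% of all tested genes in which every T2 library was above every C library. The 4 T2 libraries were not equal in the strength of the rise. T2 replicate 4 was the highest of the 4 in 315 raised genes and T2 replicate 1 the lowest in 222. Per library, the median change of the 418 genes from the C mean, on a log2(CPM + 0.1) scale, was 1.99, 2.14, 2.23 and 2.62 in T2 and between -0.07 and 0.10 in C. These genes were chosen on the same T2 and C libraries. The lack of overlap, here and in the raised genes named below, and these medians therefore describe the libraries and test nothing. Without T2 replicate 4, 313 genes were called, and all 313 were among the 422. With every library thinned to the smallest total, 343 were called.

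**Figure D1:**
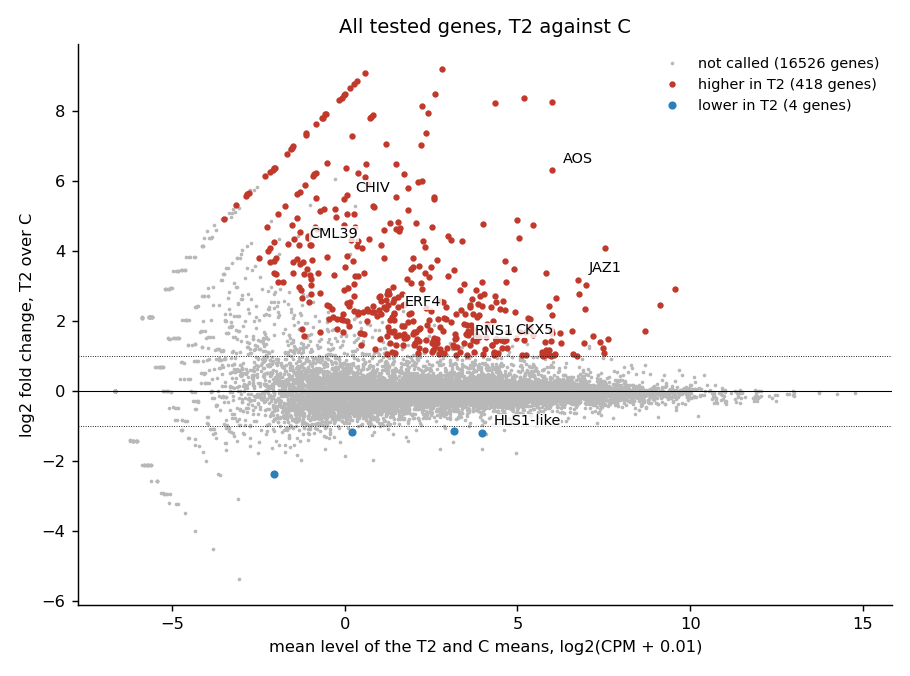
Each point is 1 of 16948 tested genes, with the mean of the T2 and C levels on the x axis (log2 of CPM + 0.01) and the log2 fold change of T2 over C on the y axis. The 418 genes called higher in T2 spread upwards to 9.20, while 4 genes were called lower, none below -2.38, and dotted lines mark the fold minimum of 1 and -1.

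The largest annotated rise was that of 1 jasmonate gene, AOS. AOS (MLOC_21933) had 85.5, 98.7, 139.9 and 180.2 CPM in T2, against 1.18, 3.65, 0.746 and 0.625 CPM in C. Every T2 library was above every C library, and the log2 fold change was 6.33 ± 0.60 (SE; adjusted p = 8.3e-08, edgeR). JAZ1 (MLOC_12120), which encodes a repressor of jasmonate signalling, had 162.7, 168.7, 181.5 and 264.7 CPM in T2, against 18.0, 27.4, 21.8 and 16.4 CPM in C. Its groups did not overlap either, and it rose by 3.19 ± 0.24 (adjusted p = 2.6e-09). NINJA (MLOC_31759), the adaptor that links JAZ proteins to the TOPLESS corepressor, was examined after its values were seen. It had 56.8, 44.1, 42.1 and 63.1 CPM in T2, against 24.9, 30.2, 23.4 and 19.6 CPM in C, a rise of 1.04 ± 0.16 (adjusted p = 5.6e-05) that lay close to the fold minimum, at 0.93 without T2 replicate 4 and 0.97 without C replicate 4.

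Of the 6 members of the jasmonate list, 2 (AOS and JAZ1) were called and 4 were not. Calls were made in 2.49% of all tested genes and 1.37% of those with an Arabidopsis partner, the source of all lists. The list median was 0.34, beside -0.02 over all tested genes. MLOC_19, paired with a ligase that activates the precursor OPDA, averaged 50.3 ± 5.02 CPM in T2 and 36.5 ± 3.09 CPM in C (SD, n = 4 each), a log2 difference of 0.43 (adjusted p = 0.016) that did not pass. The difference was 0.25 for ST2A, a sulfotransferase that acts on hydroxyjasmonate, 0.00 for JAM2, a transcriptional repressor of jasmonate responses, and -0.03 for MLOC_2815, paired with a ligase that activates the next precursor, OPC.

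**Figure D2:**
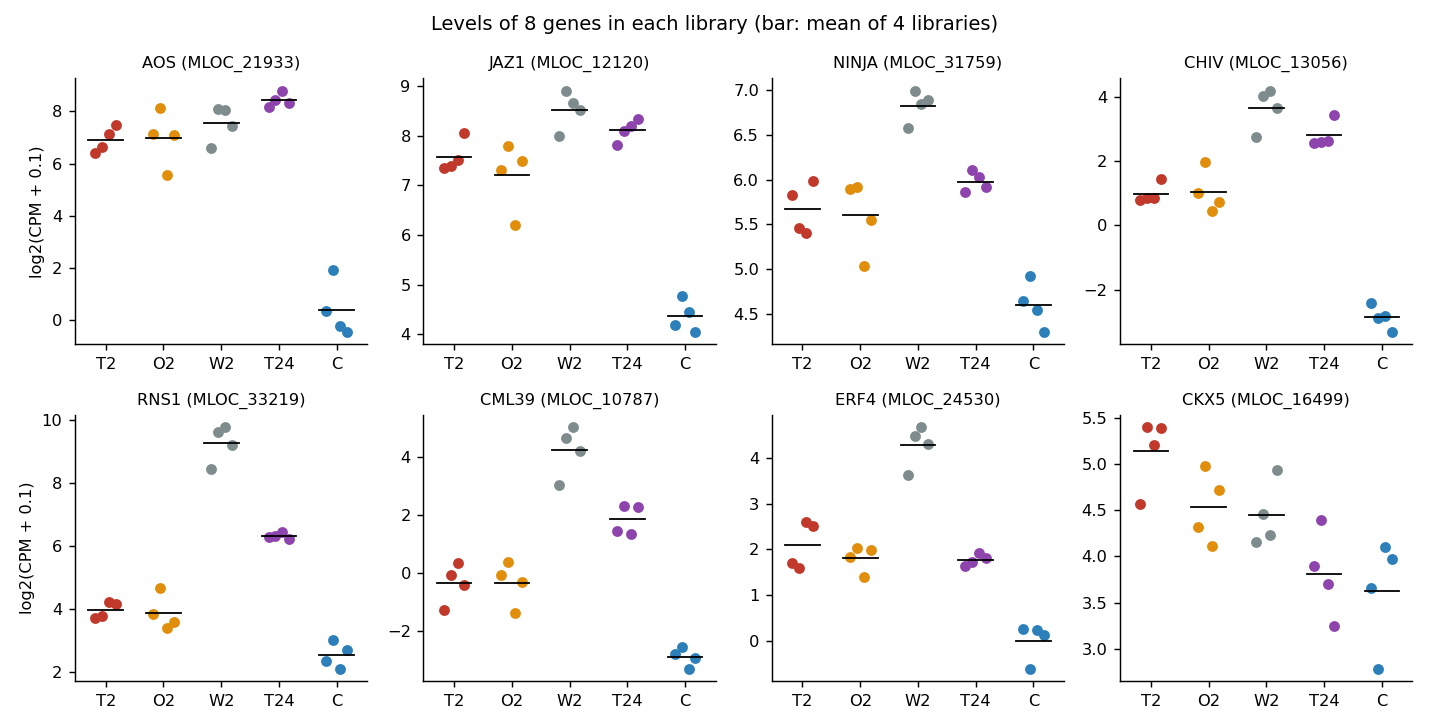
Each panel shows 1 gene in the 4 libraries of T2, O2, W2, T24 and C as log2(CPM + 0.1), with a bar at the group mean. In all 8 genes every T2 point lies above every C point, and in NINJA, CHIV, RNS1, CML39 and ERF4 the W2 points lie above all T2 points.

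In the list of defence and cell wall proteins, 2 of 10 tested members were called, CHIV and RNS1, beside 2.49% of all tested genes. CHIV (MLOC_13056), a class IV chitinase that cleaves chitin, had 1.61, 1.71, 1.72 and 2.64 CPM in T2, against 0.0876, 0.0348, 0.0414 and 0 CPM in C. Together the C libraries held 4 counts of this gene and the T2 libraries 104, and the log2 fold change was 5.49 ± 0.70 (adjusted p = 5.1e-06). RNS1 (MLOC_33219), a secreted ribonuclease that wounding induces in Arabidopsis, had 13.1, 13.7, 18.8 and 17.9 CPM in T2, against 5.08, 8.00, 4.23 and 6.39 CPM in C. The groups were separate, and RNS1 rose by 1.39 ± 0.31 (adjusted p = 0.0050), although its adjusted p was above 0.01 in 7 of 17 alternative analyses and reached 0.027 without T2 replicate 3. The other 8 tested members of this list of 12 were not called, and the list median was 0.73. Among them, a PR-6 type proteinase inhibitor (MLOC_2643) had 8.84 to 16.1 CPM in T2 and 0.832 to 7.90 CPM in C, a log2 difference of 2.03 ± 0.68 that did not pass (adjusted p = 0.11). MLOC_25343, paired with a family 81 glycosyl hydrolase of the kind that cleaves beta-1,3-glucan, had 6.54, 6.92, 5.80 and 6.49 CPM in T2, against 2.497, 2.89, 2.20 and 1.79 CPM in C, and rose by 1.43 ± 0.26 (adjusted p = 7.0e-04).

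Among 10 calcium genes, 1 was called, beside 2.49% of all tested genes, and the list median was 0.14. This was CML39 (MLOC_10787), a calmodulin-like calcium-binding protein. It had 0.308, 0.854, 1.15 and 0.641 CPM in T2, against 0.0438, 0.0696, 0 and 0.0284 CPM in C. These values rest on 42 counts in T2 and 4 in C, and the log2 fold change of 4.18 ± 0.98 (adjusted p = 0.0082) missed the threshold in 9 of 16 alternative analyses, with an adjusted p of up to 0.057. A rise was also called in MLOC_14660, paired with an integrin-linked type kinase, which had 1.84, 1.79, 1.55 and 2.16 CPM in T2 and 0.131, 0.174, 0.290 and 0.0284 CPM in C (3.56 ± 0.49, adjusted p = 1.1e-05). MLOC_140, paired with a receptor-like kinase gene, had 16.2, 17.7, 14.2 and 22.8 CPM in T2 and 7.80, 5.32, 7.71 and 6.93 CPM in C (1.31 ± 0.22, adjusted p = 1.9e-04). In both kinases the lowest T2 library was above the highest C library.

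Immune receptors and regulators had no called member among 7 tested of 10, with a list median of 0.28, and with 2.49% of all tested genes called, a count of 0 in a list of this size is near the background. MPK3 (MLOC_17814), a mitogen-activated protein kinase of early defence signalling, came nearest. It had 40.8, 39.3, 46.1 and 47.9 CPM in T2, against 23.6, 27.4, 23.1 and 18.9 CPM in C. The groups did not overlap and its adjusted p was 0.0012, but the log2 difference of 0.88 ± 0.17 was under the fold minimum. Smaller differences were measured for PAD4, a lipase-like immune regulator (0.32, adjusted p = 0.20), MAPKKK5 (0.31, adjusted p = 0.060), PBS1, a receptor-like cytoplasmic kinase (0.28, adjusted p = 0.042), SRFR1 (-0.03), BIR1 (-0.07) and LYM1 (-0.07). MES1, UGT76B1 and LYK3 were not tested, with 0, 0 and 2 counts over all T2 libraries and 1, 0 and 5 over all C libraries.

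ERF4 (MLOC_24530), a repressor among the ethylene response factors, rose. It had 3.15, 2.90, 5.97 and 5.61 CPM in T2, against 1.10, 0.556, 1.08 and 0.994 CPM in C (2.23 ± 0.29, adjusted p = 4.3e-06). In the list of 12 ethylene and abscisic acid genes, ERF4 was the 1 called of 10 tested, beside 2.49% of all tested genes, and the list median was 0.04. EIN3, the transcription factor at the end of the ethylene pathway, differed by 0.46 (adjusted p = 0.044). PUB25 (MLOC_23553), a U-box ubiquitin ligase, had 1.61, 2.05, 1.78 and 2.80 CPM in T2, against 0.307, 0.209, 0.456 and 0.256 CPM in C (2.71 ± 0.46, adjusted p = 2.1e-04). MLOC_16989, paired with a GRAS family transcription factor, had 1.23, 0.940, 1.32 and 1.36 CPM in T2, against 0.350, 0.243, 0.124 and 0.170 CPM in C (2.43 ± 0.52, adjusted p = 0.0035). Its call rests on 67 counts in T2 and 24 in C and was lost in 6 of 17 alternative analyses, with an adjusted p of up to 0.020.

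The other annotated genes named by their rise have no list in common. CKX5 (MLOC_16499), an oxidase that degrades cytokinins, had 23.6, 42.1, 36.7 and 42.0 CPM in T2, against 12.5, 6.78, 17.03 and 15.6 CPM in C (1.42 ± 0.28, adjusted p = 0.0016), and missed the call only when T2 and C were fitted alone (adjusted p = 0.030). AXR4 (MLOC_20913), which is needed for the localization of an auxin influx carrier in Arabidopsis, had 3.69, 4.01, 2.93 and 3.84 CPM in T2 and 1.75, 1.39, 1.20 and 1.08 CPM in C (1.38 ± 0.23, adjusted p = 2.2e-04). In both genes the lowest T2 library was above the highest C library. GSH2 (MLOC_19025), the glutathione synthetase that completes this antioxidant peptide, had 34.4, 30.0, 24.3 and 34.6 CPM in T2, against 10.3, 9.39, 13.01 and 11.2 CPM in C (1.44 ± 0.23, adjusted p = 1.1e-04). PRS3 (MLOC_15525), a phosphoribosyl pyrophosphate synthetase that feeds nucleotide synthesis, had 18.1, 15.3, 14.6 and 26.2 CPM in T2, against 5.48, 6.57, 3.23 and 4.06 CPM in C (1.90 ± 0.30, adjusted p = 1.2e-04). BCS1 (MLOC_1081), an ATPase of the mitochondrial outer membrane, had 1.31, 0.769, 0.976 and 2.16 CPM in T2, against 0.131, 0.452, 0.124 and 0.227 CPM in C (2.36 ± 0.36, adjusted p = 5.3e-05).

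In 4 further annotated genes the T2 and C libraries were likewise separate, as in 415 of the 418 raised genes. All were chosen on these same libraries. MLOC_22124, paired with an FAD-binding oxidoreductase, varied the most of these 4 among T2 libraries relative to its mean. It had 2.77, 6.75, 8.09 and 11.5 CPM in T2, against 0.394, 0.348, 0.704 and 0.568 CPM in C (3.81 ± 0.59, adjusted p = 8.4e-05). An acyl-CoA thioesterase gene (MLOC_12655) averaged 51.4 ± 9.42 CPM in T2 and 15.8 ± 4.06 CPM in C (SD, n = 4 each) and rose by 1.68 ± 0.24. A nucleotide-sugar transporter gene (MLOC_12715), of a class that supplies sugars to cell wall synthesis, averaged 34.1 ± 5.91 CPM in T2 and 12.1 ± 1.63 CPM in C and rose by 1.46 ± 0.25. MLOC_18178, paired with a hydroxyproline-rich LEA family gene, averaged 2.04 ± 0.53 CPM in T2 and 0.626 ± 0.172 CPM in C and rose by 1.65 ± 0.31 (adjusted p = 7.2e-04).

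The 3 terpene synthase genes that the study singled out were read separately, since terpenes are volatile products of jasmonate-responsive defence. MLOC_76989 had 1.31, 1.11, 2.07 and 2.56 CPM in T2 and no count in any C library. Pooled, 98 counts in T2 against the 3 counts that the C group could have missed make it at least 66.3-fold higher in T2. MLOC_56812 had 0.769, 0.940, 1.20 and 2.48 CPM in T2 and again no count in C, which makes it at least 49.4-fold higher (73 counts in T2). Without T2 replicate 4 the bounds were 57.9-fold for MLOC_76989 and 36.9-fold for MLOC_56812. Both calls were thin. The adjusted p was 0.0080 for MLOC_76989 and 0.0050 for MLOC_56812, and it was above 0.01 in 11 of 16 and 8 of 17 alternative analyses, reaching 0.030 and 0.025. MLOC_13618 was at background in both groups, with 0, 0, 0.0574 and 0.240 CPM in T2 and 0, 0.417, 0 and 0.0284 CPM in C (log2 difference -0.66 ± 1.23, adjusted p = 0.92). The 13 phenylpropanoid and terpenoid genes of the list, which include enzymes of the precursor pathways, had no called member and a median of -0.03, and with 2.49% of all tested genes called, this count is near the background.

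Most raised genes have no Arabidopsis partner in the pairing used here. Of the 1828 tested genes with a partner, 25 were called (1.37%, beside 2.49% of all tested genes). The largest fitted rises among the others were MLOC_43080 and MLOC_8043. MLOC_43080 had 10.2, 10.8, 15.8 and 19.5 CPM in T2, against 0.0438, 0, 0 and 0.0284 CPM in C, where 2 counts were found in all. From 778 counts in T2, the ratio of T2 to C was 790.0 (95% exact binomial interval 218 to 6535, counting error only). MLOC_8043 had 2.54, 2.56, 3.79 and 2.96 CPM in T2 and no count in C. It was at least 112.4-fold higher in T2, a bound of 99.4-fold without T2 replicate 3.

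Only 4 genes fell. MLOC_21153, paired with an HLS1-like N-acetyltransferase, had 8.69, 8.88, 12.6 and 8.57 CPM in T2, against 17.3, 26.1, 24.7 and 19.5 CPM in C (-1.19 ± 0.26, adjusted p = 0.0043). MLOC_81350 had 5.84, 6.32, 4.88 and 5.37 CPM in T2, against 10.51, 17.9, 12.97 and 7.24 CPM in C (-1.14 ± 0.20, adjusted p = 3.0e-04). MLOC_57971 had 0.769, 0.683, 0.861 and 0.480 CPM in T2, against 1.53, 1.63, 1.66 and 1.48 CPM in C (-1.18 ± 0.25, adjusted p = 0.0034). In all 4 genes that fell every T2 library was below every C library, against a background of 1.97% of all tested genes. As the 4 were called on these same libraries, this separation tests nothing. The fourth, MLOC_52923, chosen after its values were seen, had 4 counts in T2 and 44 in C (-2.38 ± 0.53, adjusted p = 0.0051). Each of the 4 lost its call in at least 1 alternative analysis, and MLOC_81350 did so only without C replicate 2, at -0.94.

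Lists of photosynthesis and general cell functions were examined for shifts at 2 h. None of 18 nuclear photosynthesis genes (median -0.12), 16 cytosolic ribosomal protein genes (median 0.08), 11 tested protein folding genes of 13 (median 0.12), 3 tested epidermis genes of 5 (median -0.12), 4 tested guard cell and vein genes of 5 (median 0.09) or 51 tested plastid-encoded genes of 67 (median -0.16) was called, and the smallest adjusted p in these lists was 0.32. Of all tested genes 2.47% were called higher and 0.0236% lower, so lists of this size hold few calls or none at the background rate. In whole leaf tissue, fewer cells of a type and less RNA per cell cannot be told apart. In 16 of 18 photosynthesis genes and 41 of 51 plastid-encoded genes the log2 difference was below 0, beside 9264 of all 16948 tested genes. These counts were not tested. As poly(A) RNA was sequenced, the reads of plastid-encoded genes may reflect carry-over in library making and were not read as plastid RNA levels. The clock genes were close in both groups. LHY, a morning-expressed repressor, had 5418, 5097, 4205 and 4610 CPM in T2 and 5629, 5585, 5010 and 4684 CPM in C, a log2 difference of -0.15 (adjusted p = 0.76). The log2 differences of GI, PRR7 and GRP7 were 0.15, -0.14 and -0.22, with adjusted p-values of 0.78, 0.57 and 0.66.

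**Figure D3:**
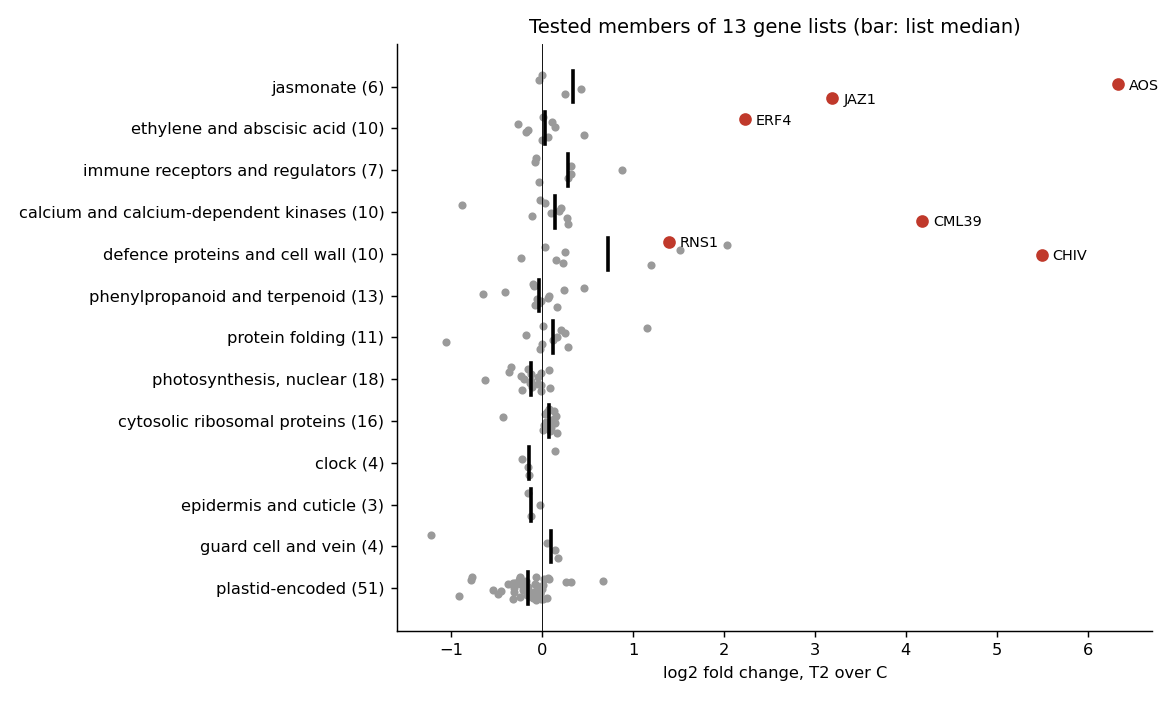
Each point is a tested member of 1 of 13 gene lists, with the number tested in parentheses and the log2 fold change of T2 over C on the x axis, and a bar marks the list median. The 6 red named points (AOS, JAZ1, ERF4, CML39, CHIV and RNS1) were called, and list medians lie between -0.16 and 0.73.

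The comparison of T2 with O2 asks whether a generalist and a grass specialist gave different responses at the same time and density. No gene of 16948 was called in either direction (0% by the edgeR quasi-likelihood test, smallest adjusted p = 0.25). At an unadjusted p below 0.05 there were 517 genes, and DESeq2 gave 572 at an unadjusted p below 0.05 and called 1 gene, MLOC_36529, at 1.32 to 2.64 CPM in T2 and 2.84 to 7.5 CPM in O2 (-1.44 ± 0.28, adjusted p = 0.0067 by DESeq2 and 0.25 by edgeR). The 418 genes raised in T2 over C were chosen on the T2 libraries, which this comparison shares. Among them, the T2 minus O2 log2 difference had a median of 0.14, beside -0.0045 over all tested genes. Its interquartile range was -0.15 to 0.41, and 397 genes differed by less than 1. The typical SE of such a difference was 0.33, so small differences in single genes may not have been detectable at this depth and replication. AOS averaged 126.1 ± 42.9 CPM in T2 and 151.0 ± 96.0 CPM in O2 (log2 difference -0.21 ± 0.44), and JAZ1 194.4 ± 47.5 CPM in T2 and 158.6 ± 62.4 CPM in O2 (0.33 ± 0.22; SD, n = 4 each). MLOC_76989 had 1.11 to 2.56 CPM in T2 and 0.567 to 12.5 CPM in O2 (-1.43 ± 0.77), and CKX5 23.6 to 42.1 CPM in T2 and 17.2 to 31.4 CPM in O2 (0.65 ± 0.28). The PR-6 type inhibitor had 8.84 to 16.1 CPM in T2 and 11.2 to 106.1 CPM in O2 (-1.92 ± 0.62). All 5 had an adjusted p of 1. O2 replicate 3 was the lowest of the 8 T2 and O2 libraries in 351 of the 418 genes, and leaving it out still gave 0 called genes.

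**Figure D4:**
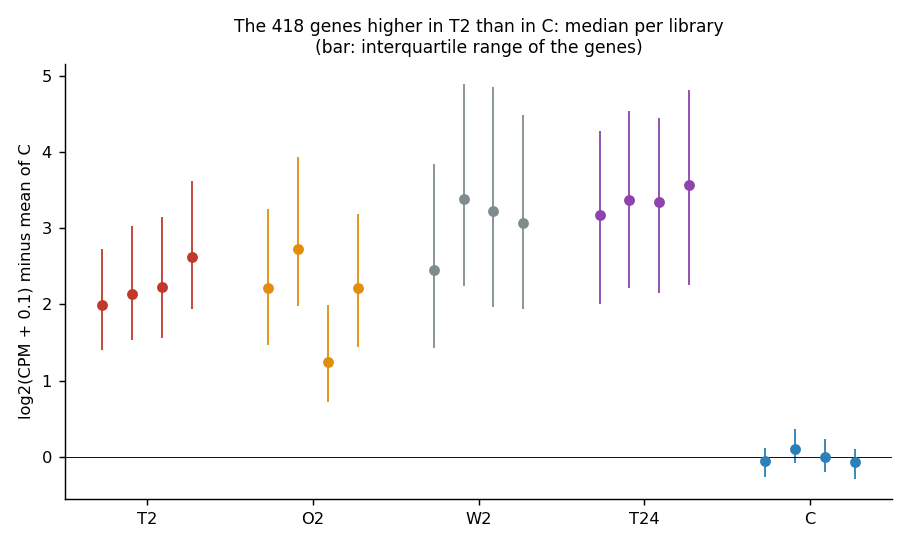
Points show, for each library of T2, O2, W2, T24 and C, the median over the 418 genes of log2(CPM + 0.1) minus the mean of C, with bars over the interquartile range of the genes. T2 lies between 1.99 and 2.62 and C between -0.07 and 0.10, and O2 replicate 3 is at 1.24, below the other O2 libraries.

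Wounding and mite infestation, each at 2 h, gave different levels for many genes. Of 16948 genes, 1605 were higher and 2803 lower in T2 than in W2, 26% in all, with 9.47% higher and 16.5% lower. The share of calls that were higher in T2 was 36.4%, and 51.7% with upper-quartile scaling, which moved the median of all tested genes to 0.20, against 0.01. Among the 418 genes raised in T2 over C, 55 were higher (13.2%) and 178 lower (42.6%) in T2 than in W2, and the median log2 difference was -0.79. Without T2 replicate 4 the 55 became 34. The 418 were chosen on T2 against C, so these counts share the T2 libraries with that choice.

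Of the 20 annotated genes with the largest rises over C, 12 were lower in T2 than in W2, 1 was higher and 7 were not called. Over all tested genes, 16.5% were lower and 9.47% higher. The 20 were chosen on T2 against C, so these counts share the T2 libraries with that choice. Among the 12, PUB25 (-1.10 ± 0.36) lost its call in 9 of 16 alternative analyses. RNS1 showed the widest gap, with 13.1 to 18.8 CPM in T2 and 345.2 to 867.5 CPM in W2, a log2 difference of -5.38 ± 0.33 (adjusted p = 5.3e-13). CML39 had 0.308 to 1.15 CPM in T2 and 8.08 to 32.3 CPM in W2 (-4.81 ± 0.47). The GRAS family gene had 0.940 to 1.36 CPM in T2 and 11.6 to 29.1 CPM in W2 (-4.24 ± 0.35). The same order was seen for the family 81 glycosyl hydrolase (-3.74 ± 0.25), the hydroxyproline-rich LEA gene (-2.86 ± 0.26), CHIV (-2.85 ± 0.36) and ERF4 (-2.19 ± 0.25). NINJA averaged 51.5 CPM in T2 and 113.8 CPM in W2 (-1.18 ± 0.16), though it missed the fold minimum at -0.99 with upper-quartile scaling.

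The 2 jasmonate genes with the strongest rises were not called between T2 and W2. AOS had 85.5 to 180.2 CPM in T2 and 97.5 to 275.4 CPM in W2 (-0.73 ± 0.45, adjusted p = 0.15), and JAZ1 had 162.7 to 264.7 CPM in T2 and 255.3 to 481.6 CPM in W2 (-0.99 ± 0.22, adjusted p = 4.3e-04, just under the fold minimum). Of the other jasmonate list members, JAM2 was called lower in T2 than in W2 (-1.13 ± 0.08, adjusted p = 2.0e-12, edgeR). It missed the fold minimum at -0.94 with upper-quartile scaling. MLOC_19 was called higher (1.01 ± 0.11, adjusted p = 8.8e-09, edgeR) but lost the call in 7 of 17 alternative analyses. ST2A (0.67) and MLOC_2815 (0.03) were not called. AXR4 was higher in T2 than in W2, at 2.93 to 4.01 CPM in T2 and 1.12 to 1.74 CPM in W2 (1.30 ± 0.23, adjusted p = 2.2e-05). MLOC_23899, paired with a LysM domain gene and chosen after its values were seen, had 6.41 to 10.2 CPM in T2, 1.98 to 3.77 CPM in W2 and 2.497 to 4.81 CPM in C, so that T2 stood 1.37 ± 0.21 above W2 (adjusted p = 2.6e-06) and 1.12 ± 0.21 above C, a call over C that was lost in 3 of 17 alternative analyses. MLOC_43080 was also higher in T2 than in W2 (1.35 ± 0.36, adjusted p = 0.0019), but not called without T2 replicate 4 (1.17, adjusted p = 0.010). MLOC_8043 was lower in T2, at 2.54 to 3.79 CPM, than in W2, at 8.66 to 28.3 CPM.

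Some list members that were flat between T2 and C stood far apart between T2 and W2; these were picked after their values were seen. COR47, a dehydrin of cold and water deficit, had 229.2 to 294.7 CPM in T2, 2361 to 3446 CPM in W2 and 178.8 to 357.5 CPM in C (T2 minus W2 -3.52 ± 0.25). CAX1, a vacuolar calcium exchanger, had 2.56 to 4.15 CPM in T2, 43.7 to 133.6 CPM in W2 and 2.21 to 4.35 CPM in C (-4.78 ± 0.29). FES1A, a cofactor of HSP70 chaperones, had 31.6 to 39.9 CPM in T2, 436.4 to 772.2 CPM in W2 and 29.9 to 40.0 CPM in C (-4.13 ± 0.17). In these 3 genes the T2 range lay within the C range and the lowest W2 library was above every T2 library. The clock gene GI was lower in T2 than in W2 as well (-1.15 ± 0.13, and -0.96 with upper-quartile scaling, under the fold minimum), and the summed photosynthesis level was 19087 to 24423 CPM in T2 and 8483 to 11302 CPM in W2; their part in the other differences was not tested.

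**Figure D5:**
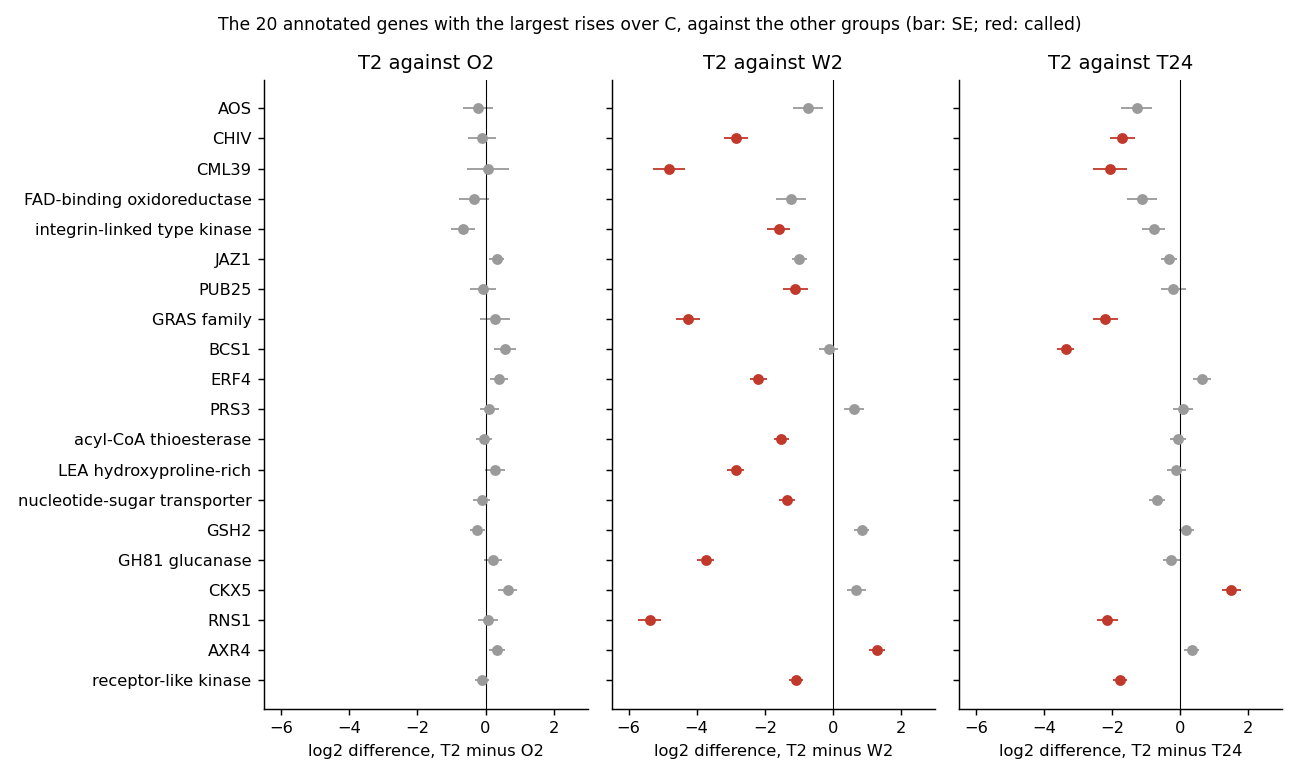
Each row is 1 of the 20 annotated genes with the largest rises over C, and the panels give the log2 difference of T2 minus O2, minus W2 and minus T24, with bars of 1 SE and called genes in red. None is red against O2, 13 are red against W2, of which AXR4 alone lies above 0, and 7 are red against T24, of which CKX5 alone lies above 0. Over all tested genes, 0%, 26% and 13.3% were called against O2, W2 and T24.

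T2 and T24 leaves carried the same mite for different times. They also carried 400 and 200 mites, so time and density cannot be told apart. Of 16948 genes, 552 were higher and 1694 lower in T2 than in T24, 13.3% in all, with 3.26% higher and 10% lower. The share of calls higher in T2 was 24.6%, and 11.3% with scaling by library size alone, which moved the median of all tested genes to -0.21, against -0.03. Without T24 replicate 4 the 552 became 342. Among the 418 genes raised in T2 over C, 139 were lower in T2 than in T24 (33.3%), 5 were higher (1.20%) and 274 were not called, with a median log2 difference of -0.65. As against W2, these counts share the T2 libraries with the choice of the 418.

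BCS1 had the largest gap of the 20 annotated genes, at 0.769 to 2.16 CPM in T2 and 12.6 to 18.6 CPM in T24 (-3.36 ± 0.26, adjusted p = 7.9e-11). In W2 it had 1.24 to 1.49 CPM, within the T2 range. RNS1 averaged 15.8 ± 2.89 CPM in T2 and 80.0 ± 5.65 CPM in T24 (SD, n = 4 each; -2.14 ± 0.29), and the GRAS family gene (-2.20 ± 0.36), CML39 (-2.07 ± 0.51), the receptor-like kinase gene MLOC_140 (-1.76 ± 0.21) and CHIV (-1.71 ± 0.36) were also lower in T2. AOS averaged 126.1 CPM in T2 and 350.9 CPM in T24, which did not pass (-1.28 ± 0.45, adjusted p = 0.020), and JAZ1 194.4 CPM in T2 and 279.1 CPM in T24 (-0.33 ± 0.22, adjusted p = 0.22). The PR-6 type inhibitor, at 8.84 to 16.1 CPM in T2, had 925.1 to 2204 CPM in T24 (-6.75 ± 0.73). MLOC_13618, the terpene synthase at background in T2 and C, had 0 to 0.240 CPM in T2 and 5.91 to 15.1 CPM in T24 (-6.96 ± 0.56).

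Among the 5 raised genes that were higher in T2 than in T24, CKX5 had 23.6 to 42.1 CPM in T2 and 9.37 to 20.9 CPM in T24 (1.50 ± 0.29, adjusted p = 1.2e-04). The other 4 have no partner in the pairing and were chosen after their values were seen. MLOC_62371 had 220.6, 182.8, 192.4 and 282.0 CPM in T2 and averaged 111.3 CPM in T24, 84.2 CPM in W2 and 71.6 CPM in C, and it was called higher in T2 against each of these 3 groups (1.16 ± 0.15 over T24, 1.35 ± 0.15 over W2, 1.58 ± 0.15 over C), though at 0.98 over T24 with scaling by library size alone. MLOC_64688 had 19.1, 15.2, 24.2 and 23.7 CPM in T2 and averaged 9.82 CPM in T24, 8.76 CPM in W2 and 7.40 CPM in C, with differences of 1.27 ± 0.22 over T24, 1.23 ± 0.21 over W2 and 1.45 ± 0.22 over C. In both genes the O2 mean, at 164.5 and 17.1 CPM, lay between the T2 and T24 means. MLOC_44595 and MLOC_75886 were higher in T2 than in T24 by 1.35 ± 0.41 and 2.44 ± 0.62, and neither was called higher in T2 than in W2 (-1.25 ± 0.37, called lower, and -0.62 ± 0.43). MLOC_44595 lost its call against T24 in 7 of 16 alternative analyses.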

How the data were processed

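RNA-seq read counts per gene were used as deposited in 1 table of 28 libraries (7 groups of 4). Per the study's methods, poly(A) RNA was made into stranded libraries and sequenced as paired ends on 4 lanes with replicates spread evenly. The authors aligned the reads with STAR, in a two-pass run, to the Ensembl release of the Morex assembly and counted uniquely aligned reads per gene with HTSeq 0.6.0 on the stated strand. These deposited counts are not normalized, and reads shared by near-identical genes are not counted. All 28 columns matched a sample and none was left out.

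Counts were filtered (edgeR 4.0.16 filterByExpr, minimum count 10), scaled by TMM and fitted with 1 mean per group over all 28 libraries with a robust quasi-likelihood test. Calls needed a Benjamini-Hochberg adjusted p below 0.01 and an absolute log2 fold change above 1. The tested genes held 99.97% of all counts. Where all C libraries were at 0, folds are bounds that treat C as holding 3 counts in total. Intervals and floors cover counting error only. Library measures were compared by 2-sided exact permutation tests. Genes were named by rule: list members that were called, the 20 largest annotated rises and all annotated falls, the 2 largest changes each way among the other genes with a mean of at least 1 CPM and no overlap of T2 and C, and the terpene synthases. All members and lists were chosen with earlier results of these data known. Replicates are separate leaf enclosures, and no 2 libraries of T2 or C agreed within sampling noise. Alternatives were other scalings, DESeq2 1.42.0, other filters and thresholds, only the compared groups, a replicate block, thinned counts and each library left out. The analysis was tested on simulated data.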

Additional observations from a re-analysis of the deposited data

Results flagged for a closer look

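In CHIV, T2 replicate 4 (2.64 CPM) stood apart from the other T2 libraries, and in the HLS1-like gene MLOC_21153 T2 replicate 3 did (12.6 CPM). Of 72 gene and group sets examined for a library that stands apart, chance alone would mark about 1 in 20.

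Several named genes that changed between T2 and C also differed between the T. urticae time points, by the test of T2 against T24 itself. Lower in T2 than in T24, in log2 units, were BCS1 (-3.36), the GRAS family gene MLOC_16989 (-2.20), RNS1 (-2.14), CML39 (-2.07), TMN11, paired with a nonaspanin membrane protein and chosen after its values were seen (-1.96), the receptor-like kinase gene MLOC_140 (-1.76) and CHIV (-1.71). Higher in T2 than in T24 were MLOC_75886 (2.44), CKX5 (1.50), MLOC_44595 (1.35), MLOC_64688 (1.27), MLOC_62371 (1.16) and the HLS1-like gene MLOC_21153 (1.02), which was lower in T2 than in C. The call of MLOC_21153 against T24 was lost in 5 of 17 alternative analyses, with a difference as low as 0.82.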

How the results depend on the processing

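The count for T2 against C stayed within 1.5 times of 422 under every alternative run, at 313 to 428 with 1 library left out, and 405 of the 422 were also called with a replicate block (419 called). DESeq2, in a later version than the study used, called 551 genes (545 higher and 6 lower in T2). This was not a rerun of the study's own analysis. With the threshold on the adjusted p at 0.05, edgeR called 533. The T2 against O2 count moved only with DESeq2, to 1. Without a fold minimum, 9503 genes passed for T2 against W2 and 6580 for T2 against T24. Leaving out 1 library gave 0 for T2 against O2, 4106 to 4718 for W2 and 1689 to 2409 for T24. The T2 minus C difference in total counts was -15711785 to -11580841, in plastid-encoded share -0.11 to -0.02 percentage points and in the share of the 10 most abundant genes -0.82 to 0.22.

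Of 36 named genes called between T2 and C, 22 kept the call in every alternative and none turned direction. Same-numbered replicates of T2 and C deviated together weakly (r -0.04 to 0.23), no T2 library correlated best with its own number, and a block gave 4417 calls against W2, 2261 against T24 and 0 against O2. The number of raised genes higher in T2 than in T24 was 3 to 10 over all alternatives, and 8 without T2 replicate 1. Depth limits the genes with few counts in C, whose folds are bounds or wide ratios.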

Other observations

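Other annotated genes raised in T2 were chosen after their values were seen. GUS2 (MLOC_15027), a glucuronidase, had 28.6, 23.1, 21.3 and 35.5 CPM in T2, against 12.2, 11.9, 15.5 and 10.2 CPM in C (1.09 ± 0.26, adjusted p = 0.0086, edgeR), and missed the call in 8 of 17 alternative analyses, with an adjusted p of up to 0.057 (0.94, without T2 replicate 4). TMN11 (MLOC_11918) had 3.23, 3.76, 2.12 and 5.04 CPM in T2, against 1.45, 1.46, 1.66 and 1.65 CPM in C (1.12 ± 0.26, adjusted p = 0.0070), and missed it in 9 of 17, with an adjusted p of up to 0.073 (0.90, without T2 replicate 4).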
